A study of Mus musculus with 4 samples.

Results

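The 37 genes of the mouse mitochondrial genome were described in mouse embryonic stem cells that carry or lack the miR-290-295 microRNA cluster. Members were taken as every row of the deposited count table whose gene lies on chromosome M in GENCODE vM21 (GRCm38). This rule uses no measured value, but it was chosen with earlier results of these data known. There are 13 mRNA genes, 2 rRNA genes and 22 tRNA genes among the 55421 identifiers of the table. All libraries came from embryonic stem cells labelled 129/Ola and blastocyst, and the design text names the line E14. They were kept on gelatin in medium with serum and the cytokine LIF. The knockout group (KO, n = 2 libraries) is labelled as lacking the miR-290-295 cluster, and the control group (WT, n = 2 libraries) as wild type. Each pair is described as biological duplicates, with no word on how many knockout clones they represent, so the p-values rest on the spread within each pair of libraries.

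Mitochondrial DNA is copied and read separately from the nuclear genome. Long transcripts run around almost the whole circle on each strand, and they are cut into mRNAs, rRNAs and tRNAs mostly where tRNAs are excised. The mRNAs encode subunits of the respiratory chain and of ATP synthase, and the rRNAs and tRNAs serve the ribosomes that translate them inside the organelle. Most mitochondrial mRNAs carry a short poly(A) tail, whereas the transcript of mt-Nd6 is known to lack a stable one. In GENCODE vM21, 28 of the genes are on the plus strand, among them both rRNAs, 12 mRNAs and 14 tRNAs. The other 9 are on the minus strand, namely mt-Nd6 and 8 tRNAs.

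Libraries were made from poly(A) RNA by a 3' tag method (QuantSeq FWD), in which a read lies near the site where an oligo(dT) primer bound. Total counts were 9925557 to 12726123 per library. A count of 3, used as the detection floor, corresponds to 0.236 to 0.298 CPM (library-scaled counts, with edgeR's TMM factors). The 7 plus-strand microRNA genes of the deleted cluster held 88 and 39 counts in WT and 0 in each KO library. All 9 embryonic stem cell markers examined were detected in every library, at 3690 to 4066 CPM in sum, and 2 of them were lower in KO, Klf4 (-1.59, edgeR adjusted p = 0.00234) and Utf1 (-0.91, adjusted p = 0.00567). Of 5 primitive endoderm markers 4 were lower in KO, with a sum of 8.48 and 6.56 CPM in KO and 60.4 and 52.3 in WT. The 7 fibroblast markers summed to 917 and 1084 CPM in KO and 651 and 1037 in WT, nearly all of it from Fn1 and Vim, which did not pass the test. Of the 4 fibroblast markers tested 2 were lower in KO, Col1a1 (-2.19) and Thy1 (-1.34), and 0 higher, with a median log2 fold change of -0.58. The 3 blood markers summed to at most 0.199 CPM. Whether these other cells contribute to the mitochondrial results was not tested.

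The mRNA genes end in different ways, and since a poly(A) tag marks an end, the last 30 bases are shown for the 4 most counted ones and for mt-Co3, which held no counts but ends like mt-Nd4 and mt-Cytb. For mt-Nd4, mt-Cytb and mt-Co3 the annotated gene stops 1 base into a codon, so that the stop codon is completed by the poly(A) tail, a known feature of animal mitochondria. Capitals mark the stop codon or its first base, and sequences are from the GENCODE vM21 transcripts (GRCm38).
mt-Nd4 (chrM:11515-11544, plus strand): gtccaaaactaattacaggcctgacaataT
mt-Cytb (chrM:15259-15288, plus strand): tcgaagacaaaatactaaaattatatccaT
mt-Co3 (chrM:9361-9390, plus strand): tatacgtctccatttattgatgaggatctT
mt-Nd1 (chrM:3678-3707, plus strand): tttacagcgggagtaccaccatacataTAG
mt-Nd2 (chrM:4922-4951, plus strand): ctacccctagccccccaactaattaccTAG

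Mitochondrial genes held 5.08% (library 1) and 4.93% (library 2) of the KO counts, and 6.02% and 5.58% of the WT counts. The 2 KO values lay below both WT values. The exact two-sided permutation test gave p = 0.333, the smallest that 2 libraries against 2 allow. Counting error was small beside this spread: the exact (Clopper-Pearson) 95% interval of the first value was 5.07% to 5.09%. Such intervals cover counting error only, since amplified copies of a molecule were not marked. In bulk RNA, fewer mitochondria per cell, less RNA per mitochondrion and a shift in the nuclear share cannot be told apart.

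Levels differed widely along the genome. The mRNA of mt-Nd4, a subunit of complex I, held 31.3% of all mitochondrial counts, mt-Nd1, also of complex I, 22.9%, and mt-Cytb, the cytochrome b of complex III, 17.6%. The large ribosomal RNA mt-Rnr2 followed with 11.6%, the complex I gene mt-Nd2 with 7.99%, and the small ribosomal RNA mt-Rnr1 with 4.17%. mt-Co1 (complex IV) held 2.48%, mt-Nd5 1.52% and mt-Nd6 0.0961%, both of complex I. Divided by gene length, the WT levels were 14248 CPM per kilobase for mt-Nd1 and 12017 for mt-Nd4, the other way round. Counts of 3' tags need not scale with length, so neither order ranks the amounts of transcript. Among tRNA genes mt-Tm (methionine) held most, with 229 to 754 counts per library, or 0.0829% of mitochondrial counts. Counts on a tRNA row do not tell a mature tRNA from a precursor that still contains it, or from the end of a neighbouring transcript.

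**Figure D1:**
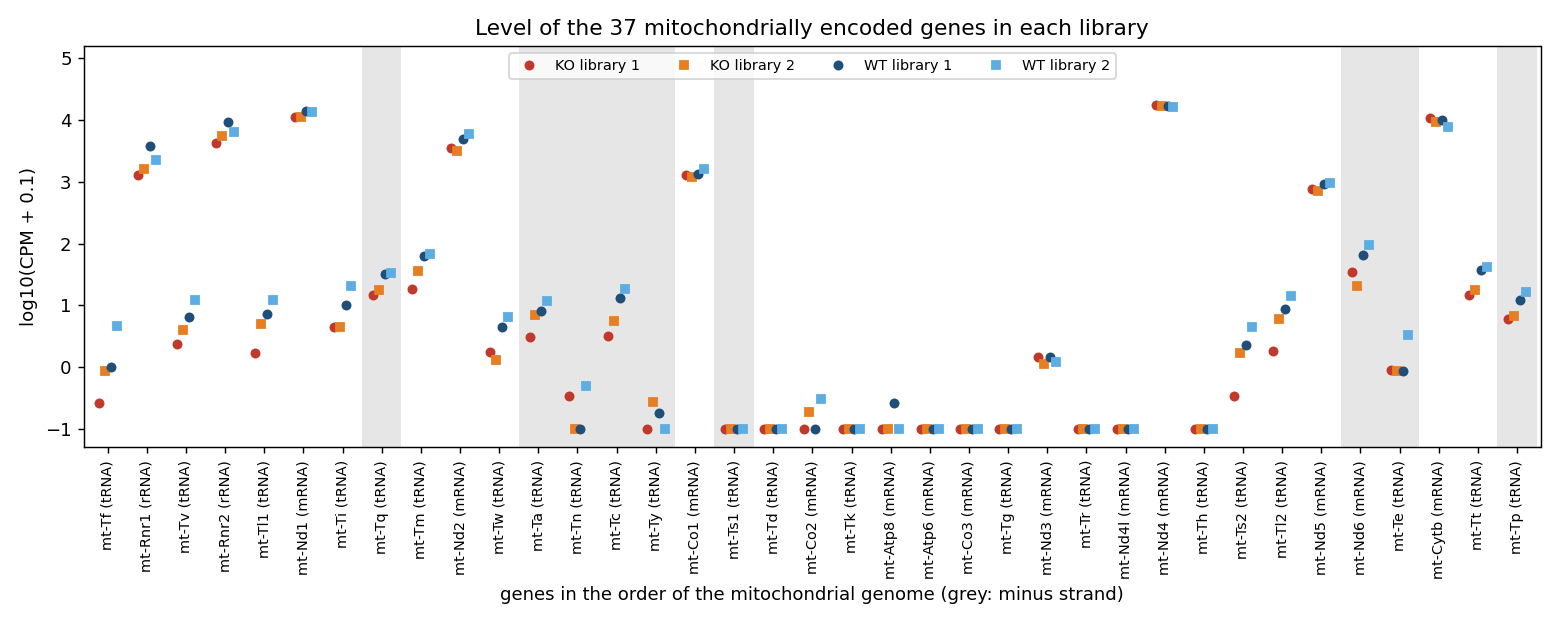
The vertical axis is the level of each of the 37 genes as log10(CPM + 0.1), with 1 point per library, and the horizontal axis lists the genes in map order, minus-strand genes on grey. The stretch from mt-Ts1 to mt-Nd4l lies at or near the bottom of the axis in all 4 libraries, with mt-Nd3 highest in it at about 1 CPM, and KO points lie under WT points at the 13 tested tRNA genes and both rRNA genes.

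Of the 37 genes, 9 held 0 counts in every library: the mRNA genes mt-Atp6, mt-Co3 and mt-Nd4l, and 6 tRNA genes. mt-Co2 held 0 and 1 count in KO and 0 and 2 in WT, mt-Atp8 held 2 counts in WT library 1 and 0 elsewhere, and mt-Nd3 held 17 and 12 counts in KO and 16 and 11 in WT. These genes encode parts of cytochrome c oxidase, ATP synthase and complex I. With mt-Atp6, mt-Co3 and mt-Nd4l they form 1 block of neighbours between mt-Co1 and mt-Nd4. Of this block only mt-Nd3 had enough counts to be tested, and for the rest no comparison of KO with WT could be made.

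The same block has close copies in the nuclear genome. A search of annotated pseudogene transcripts for matches of at least 200 bases at 95% identity or more gave 11 genes, 7 of them side by side on chromosome 1 (GRCm38, 24611535 to 24616197, minus strand). On chromosome 1, Gm28661 matched mt-Co2 over 681 bases, Gm10925 matched mt-Atp6 over 678, Gm28437 matched mt-Co3 over 783 and Gm10222 matched mt-Nd4l over 294, each at 100% identity. Another 3 copies lie on chromosome 2 and 1 on chromosome 13. A read inside a stretch copied exactly has more than 1 place in the genome. How reads with several places were counted is not given in the sources used here. The part of such reads in the low rows was not tested.

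Exact copies were measured as the share of 50-base words of a gene that also occur in a transcript from outside the mitochondria. In the last 300 bases this share was 100% for mt-Co2 and mt-Co1, 99.6% for mt-Co3, and 98.8% for mt-Atp6, mt-Nd3 and mt-Nd4l. It was 31.9% for mt-Nd2, 1.99% for mt-Nd5 and 0% for mt-Nd1, mt-Nd4, mt-Cytb, mt-Nd6 and mt-Atp8. The high-count genes thus had few or no exact nuclear copies of their ends, with mt-Co1 as the exception at 13792 to 16282 counts per library. For mt-Nd4, 62.2% of all its words were copied, but none in its last 300 bases. For mt-Atp8, which was low as well, the value covers annotated transcripts only: nuclear sequence outside them was not searched.

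**Figure D2:**
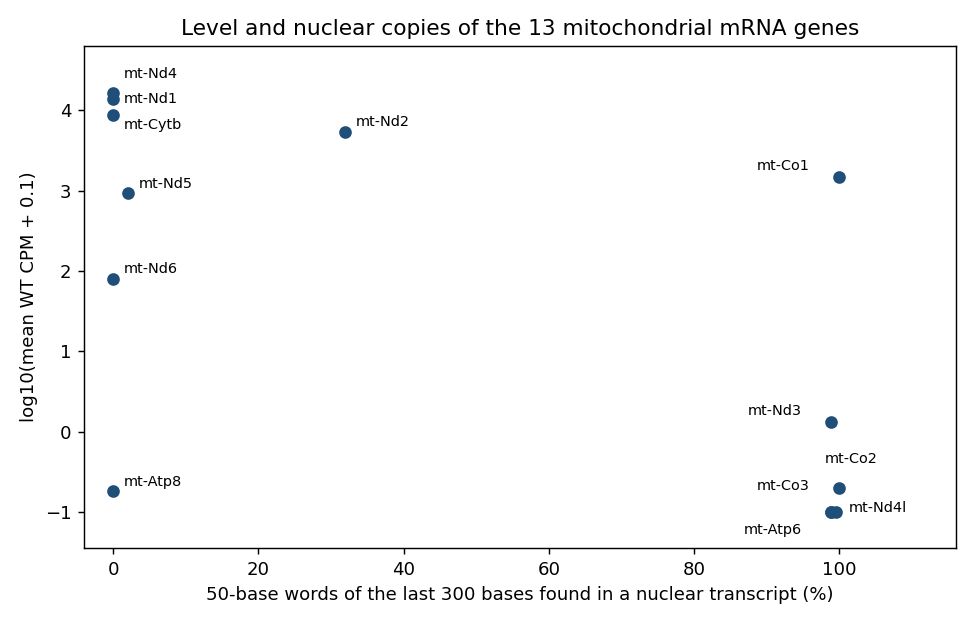
The horizontal axis is the percent of 50-base words in the last 300 bases of each of the 13 mitochondrial mRNA genes that also occur in a nuclear transcript, and the vertical axis is the mean level in the 2 WT libraries as log10(CPM + 0.1). Of 6 genes near 100% only mt-Co1 is above 1000 CPM, and of 7 genes below 50% only mt-Atp8 is near the bottom.

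One copy differed from the others in its counts. Gm28438, the chromosome 1 copy of mt-Nd3, held 857 and 569 counts in KO and 881 and 682 in WT, whereas the other 6 copies on that chromosome held 0 to 28 counts per library. Over 345 aligned bases it differs from mt-Nd3 by the single substitution T3C, counted from 1 at the start of the gene and at position 9461 of chromosome M. The first 30 bases of both are shown, with the differing base in capitals.
mt-Nd3 (chrM:9459-9488, plus strand): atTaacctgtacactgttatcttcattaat
Gm28438 (chr1:24613090-24613119, minus strand): atCaacctgtacactgttatcttcattaat
The reads themselves were not analysed here, so which base they carry is not known. Gm28438 gave a log2 fold change (KO over WT) of -0.29 (SE 0.20, edgeR adjusted p = 0.389). Of the 11 nuclear copies 8 passed the low-count filter, and none of those was called. All copies together held 851 to 1207 counts per library. On chromosome 2, Gm13340 held 86 to 120 counts per library, Gm13341 89 to 130 and Gm13339 7 to 14. The chromosome 13 copy held 2 to 6.

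The central comparison asked how each kind of mitochondrial RNA differed between KO and WT. RNA of tRNA genes, of both rRNAs and of mt-Nd6 was lower in KO, whereas the abundant plus-strand mRNAs other than mt-Nd2 did not pass the test. Of the 23 mitochondrial genes that passed the low-count filter 12 were lower and 0 higher in KO, at an edgeR quasi-likelihood adjusted p below 0.05. Over all 14427 genes tested 4.96% were lower and 7.42% higher by the same rule. By kind, 2 of 8 tested mRNAs, both rRNAs and 8 of 13 tested tRNAs were lower. The median log2 fold change was -0.28 for the mRNAs, -0.88 for the rRNAs and -1.57 for the tRNAs, and -0.01 for all genes tested. No member was higher at an unadjusted p below 0.05, nor by the DESeq2 test. In 20 of the 23 genes both KO libraries lay below both WT libraries in CPM, against 28.5% of all genes tested. Of these 20, 2 low-count tRNAs passed the filter with the help of their WT libraries, which favours such an order, and without them it was 18 of 21. Most of the tested mitochondrial mRNAs, and both rRNAs, have far higher counts than a typical gene. When the test was limited to a mean CPM of 10 or more, 8 of 14 members were lower, against 4.49% of all such genes.

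**Figure D3:**
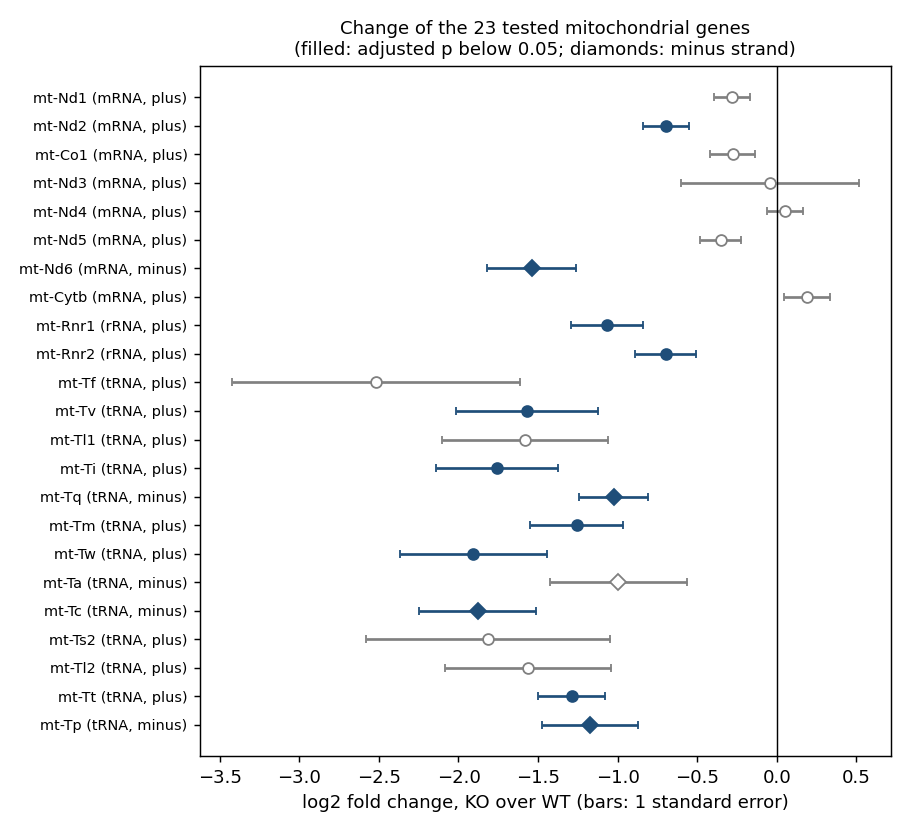
Points are log2 fold changes (KO over WT) of the 23 tested mitochondrial genes with bars of 1 standard error, grouped by kind and ordered along the genome. Filled points passed an adjusted p of 0.05. All 13 tRNAs lie between -2.52 and -0.99, both rRNAs lie left of 0, and the mRNAs of mt-Nd4 and mt-Cytb lie at 0.05 and 0.19.

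Counts were also summed by kind in each library, and each sum was tested as 1 feature among all genes, which compares kinds over libraries rather than over genes. The mRNA sum was 4.53% and 4.21% of all counts in KO and 4.70% and 4.68% in WT, and its log2 fold change was -0.10 (SE 0.11, edgeR adjusted p = 0.593). The rRNA sum was 0.548% and 0.703% in KO and 1.29% and 0.871% in WT, a log2 fold change of -0.79 (SE 0.20, adjusted p = 0.0329). The tRNA sum was 919 and 1338 counts in KO and 2463 and 2670 in WT, a log2 fold change of -1.34 (SE 0.23, adjusted p = 0.00711). The groups did not overlap for any of the 3 sums, and the size of the difference was smallest for mRNA. All mitochondrial counts together gave -0.21 (SE 0.11, adjusted p = 0.239).

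Among the plus-strand mRNAs the complex I gene mt-Nd2 was lower by the test. mt-Nd1, mt-Nd5 and mt-Co1 had lower CPM in both KO libraries than in both WT libraries without passing it. mt-Nd2 (ENSMUSG00000064345, chrM:3914-4951) stood at 3568 and 3125 CPM in KO and at 4857 and 5984 in WT. Both KO libraries were below both WT libraries, and the log2 fold change was -0.70 (SE 0.14, adjusted p = 0.0158). Without KO library 2 it was -0.60 with an adjusted p of 0.0681. mt-Nd1, the nearest mRNA gene upstream of mt-Nd2, stood at 11316 and 11099 CPM in KO and at 13943 and 13328 in WT. These groups did not overlap either, but the log2 fold change of -0.28 (SE 0.11) did not pass (adjusted p = 0.135). In the edgeR fit without a low-count filter mt-Nd1 did pass (adjusted p = 0.0272). mt-Nd5 gave -0.35 (SE 0.13, adjusted p = 0.109), with 755 and 698 CPM in KO and 910 and 944 in WT. mt-Co1 gave -0.28 (SE 0.14, adjusted p = 0.233).

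Of the 3 largest mRNAs 2 had fitted changes above 0, and neither passed the test. mt-Nd4 stood at 17686 and 16619 CPM in KO and at 16633 and 16484 in WT, so that the groups overlapped (0.05, SE 0.11, adjusted p = 0.813). mt-Cytb, the last mRNA gene of the plus strand, stood at 10603 and 9453 CPM in KO and at 9891 and 7698 in WT, and its groups overlapped too (0.19, SE 0.15, adjusted p = 0.441). mt-Nd3 gave -0.04 (SE 0.56) on at most 17 counts per library. A p above the threshold does not show that these levels are equal. There were 2972 and 3025 mt-Cytb counts per 1000 mt-Nd2 counts in KO, and 2036 and 1286 in WT, and the WT libraries differed widely. This pair was chosen after the values were seen, as the largest positive and the largest negative fitted change among the plus-strand mRNAs, so that the direction of the ratio follows from the choice and it is given as a description.

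mt-Nd6, the only mRNA of the minus strand, encodes another complex I subunit and was lower in KO. mt-Nd6 (ENSMUSG00000064368, chrM:13552-14070) stood at 34.7 and 20.1 CPM in KO and at 65.6 and 94.1 in WT. Both KO values lay below both WT values, and the log2 fold change was -1.54 (SE 0.28, adjusted p = 0.00936), or 2.91-fold lower. It was -1.20 without KO library 2 and -1.98 without KO library 1, and passed in each of the fits that leave out 1 library. Per 1000 counts of mt-Nd5, which lies opposite its end, mt-Nd6 held 46.0 and 28.8 counts in KO and 72.1 and 99.7 in WT. The exact two-sided permutation test of this ratio gave p = 0.333. The genes overlap tail to tail by 14 bases, which are in capitals in the last 30 bases of each.
mt-Nd5 (chrM:13536-13565, plus strand): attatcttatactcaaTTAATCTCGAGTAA
mt-Nd6 (chrM:13552-13581, minus strand): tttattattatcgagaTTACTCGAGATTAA
The strand setting of the counting is not given in the sources used here. Within the shared 14 bases, and wherever RNA of the opposite strand covers a minus-strand gene, reads of both strands cannot be told apart without it.

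Both ribosomal RNAs were lower in KO. The small-subunit rRNA mt-Rnr1 (chrM:70-1024) stood at 1309 and 1618 CPM in KO and at 3852 and 2273 in WT. It was lower by -1.07 on the log2 scale (SE 0.23, adjusted p = 0.0172). The large-subunit rRNA mt-Rnr2 (chrM:1094-2675) stood at 4172 and 5430 CPM in KO and at 9255 and 6310 in WT, a log2 fold change of -0.70 (SE 0.19, adjusted p = 0.0453). For both genes WT library 1 was the highest and KO library 2 lay nearest to WT library 2. The size therefore rested on single libraries. Leaving out WT library 1 brought mt-Rnr1 to -0.64 and leaving out WT library 2 brought it to -1.40, and it passed in both. mt-Rnr2 gave -0.40 without WT library 1 (adjusted p = 0.106) and -0.51 without KO library 1 (adjusted p = 0.157). The rRNA sum gave -0.46 without WT library 1 (adjusted p = 0.0603) and -0.62 without KO library 1 (adjusted p = 0.0762). The counts of mt-Rnr2 per count of mt-Rnr1 were 3.19 and 3.36 in KO and 2.40 and 2.78 in WT. Mature mitochondrial rRNAs carry at most very short tails, so these counts need not follow the amount of rRNA in the cell.

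The tRNA genes were lower in KO, on low counts. The libraries were made from poly(A) RNA, so these counts need not follow the amount of tRNA in the cell. All 13 tested tRNAs had lower CPM in both KO libraries than in both WT libraries, and 8 passed the test. These values come from the same 4 libraries, so they are not 13 separate observations. Of the 13, mt-Tf and mt-Ts2 would not have passed the low-count filter on their KO libraries alone, so a lower KO value was favoured by the filter. Leaving them out, 11 tRNAs remain, with a median log2 fold change of -1.56. The 8 called tRNAs are shown with the anticodon in capitals, the triplet that pairs with the codon, because they differ in strand, place and amino acid.
mt-Tt (threonine, chrM:15289-15355, plus strand): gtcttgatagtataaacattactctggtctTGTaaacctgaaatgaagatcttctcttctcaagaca
mt-Tc (cysteine, chrM:5192-5257, minus strand): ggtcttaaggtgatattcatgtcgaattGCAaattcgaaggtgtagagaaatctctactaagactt
mt-Tq (glutamine, chrM:3772-3842, minus strand): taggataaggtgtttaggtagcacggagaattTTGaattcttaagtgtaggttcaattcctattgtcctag
mt-Tm (methionine, chrM:3845-3913, plus strand): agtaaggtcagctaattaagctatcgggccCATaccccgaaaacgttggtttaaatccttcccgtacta
mt-Ti (isoleucine, chrM:3706-3774, plus strand): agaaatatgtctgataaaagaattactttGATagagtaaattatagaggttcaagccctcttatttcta
mt-Tw (tryptophan, chrM:4950-5016, plus strand): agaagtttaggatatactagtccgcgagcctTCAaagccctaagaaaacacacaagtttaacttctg
mt-Tp (proline, chrM:15356-15422, minus strand): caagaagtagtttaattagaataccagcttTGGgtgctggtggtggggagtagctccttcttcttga
mt-Tv (valine, chrM:1025-1093, plus strand): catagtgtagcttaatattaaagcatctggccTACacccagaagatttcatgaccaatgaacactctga

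mt-Tt, which follows mt-Cytb on the plus strand, stood at 14.7 and 17.3 CPM in KO and at 37.2 and 40.9 in WT. The libraries of each group were close and the groups far apart, with a log2 fold change of -1.29 (SE 0.21, adjusted p = 0.00593). mt-Tp, next to it on the opposite strand, stood at 5.97 and 6.73 CPM in KO and at 12.1 and 16.6 in WT (-1.17, SE 0.30, adjusted p = 0.0351). Its call held in 1 of the 4 fits that leave out a library, the one without WT library 1, and the value lay between -1.39 and -0.93. This adjacent pair of tRNAs on opposite strands was lower in KO, and mt-Cytb just upstream of it did not pass the test.

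mt-Tc, on the minus strand, stood at 3.06 and 5.54 CPM in KO and at 13.1 and 18.6 in WT, a log2 fold change of -1.88 (SE 0.37, adjusted p = 0.0127), and passed with any 1 library left out (-2.36 to -1.51). mt-Tm, which lies between mt-Tq and mt-Nd2, stood at 18.0 and 36.3 CPM in KO and at 62.8 and 66.8 in WT (-1.26, SE 0.29, adjusted p = 0.0238). Its KO libraries lay further apart than its WT libraries. Without KO library 1 mt-Tm gave -0.83 (adjusted p = 0.12). mt-Tq stood at 14.5 and 17.6 CPM in KO and at 31.8 and 33.5 in WT (-1.03, SE 0.22, adjusted p = 0.0171), and its adjusted p was 0.154 without KO library 1 and 0.0539 without KO library 2. In this tRNA the libraries of each group lay close to each other.

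mt-Ti gave -1.76 (SE 0.38, adjusted p = 0.0194) and rested partly on WT library 2, without which it gave -1.15 (adjusted p = 0.0516). mt-Tw gave -1.91 (SE 0.46, adjusted p = 0.0285) on 14 to 64 counts, and it passed again only when WT library 1 was the one left out. mt-Tv gave -1.57 (SE 0.44, adjusted p = 0.049) and lost its call without KO library 1 (-1.22) or WT library 2 (-1.04). Leaving out single libraries gave 3 called tRNAs without KO library 1, 8 without KO library 2, 11 without WT library 1 and 4 without WT library 2. Only mt-Tt, mt-Tc and mt-Nd6 were called in all of the fits run that tested them.

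The 5 tested tRNAs that did not pass were mt-Tf (phenylalanine, -2.52, SE 0.91), mt-Ts2 (serine, -1.82, SE 0.77), mt-Tl1 (leucine, -1.58, SE 0.52), mt-Tl2 (leucine, -1.56, SE 0.52) and mt-Ta (alanine, -0.99, SE 0.43). Their counts per library were 2 to 141. Of the 9 tRNAs that were not tested, mt-Te held 9 to 32 counts, mt-Tn at most 4 and mt-Ty at most 2, and 6 held 0. The longest run of A within the 8 called tRNA genes was 2 to 4 bases. mt-Tr, with a run of 8, held 0 counts, as did most genes of the stretch from mt-Ts1 to mt-Nd4l in which it lies. The mRNA gene mt-Nd2 also has a run of 8, and it held 36687 to 60275 counts per library. The part of such runs in the counts was not tested.

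Among short RNAs from outside the mitochondria, nucleolar and Cajal body RNAs and nuclear rRNA were looked at as classes. The share of nucleolar and Cajal body RNAs was 0.0333% and 0.0305% in KO against 0.107% and 0.106% in WT. For nuclear rRNA genes it was 0.00167% and 0.00195% in KO against 0.00247% and 0.00277% in WT. Both classes were lower in both KO libraries than in both WT libraries, with no test run on these sums. All small non-coding RNA other than nucleolar and Cajal body RNA took 0.0392% and 0.0356% in KO against 0.0366% and 0.0463% in WT, so that the groups overlapped. This pool includes the nuclear rRNA, and its other classes were not compared separately. The part of these RNAs in the mitochondrial results was not tested.

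Ratios within each library do not depend on how the libraries were scaled to each other. There were 1.60 and 2.70 tRNA counts per 1000 mitochondrial mRNA counts in KO and 4.31 and 5.74 in WT. For rRNA there were 121 and 167 per 1000 mRNA counts in KO and 275 and 186 in WT. mt-Nd6 held 0.768 and 0.477 counts per 1000 plus-strand mRNA counts in KO, and 1.38 and 2.04 in WT. In each of these 3 ratios both KO libraries lay below both WT libraries, and each exact two-sided permutation test gave p = 0.333, the smallest this design allows. The gap between groups was narrowest for rRNA, from 167 in KO library 2 to 186 in WT library 2.

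**Figure D4:**
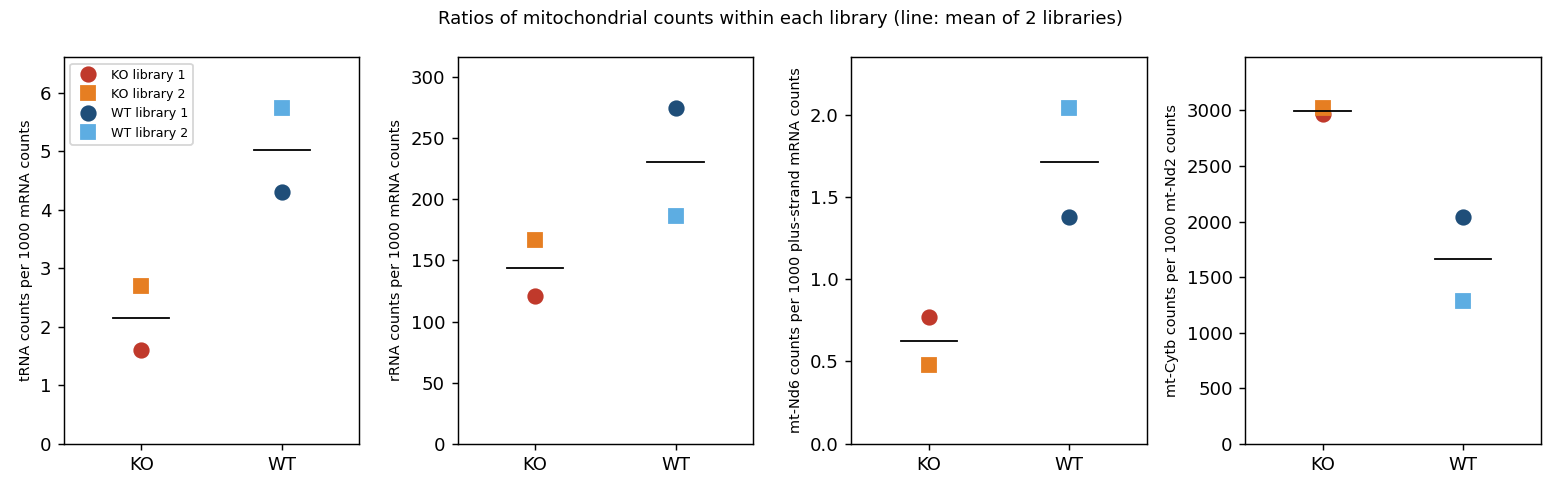
Each panel shows 1 ratio of mitochondrial counts within a library, with 1 point per library, KO on the left and WT on the right, a line at the mean of 2 libraries and the axis starting at 0. The tRNA, rRNA and mt-Nd6 ratios are lower in both KO libraries (1.60 and 2.70 tRNA counts against 4.31 and 5.74), and the ratio of mt-Cytb to mt-Nd2, a pair chosen for its difference, is higher (2972 and 3025 against 2036 and 1286).

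Strand and kind were then separated. The sum of the 9 minus-strand genes was 792 and 678 counts in KO and 1578 and 1791 in WT, and gave a log2 fold change of -1.37 (SE 0.19, edgeR adjusted p = 0.00242). The 28 plus-strand genes gave -0.21 (SE 0.11, adjusted p = 0.246). Among tRNAs the sums of both strands fell: -1.20 (SE 0.22, adjusted p = 0.00928) for the 8 minus-strand genes and -1.41 (SE 0.25, adjusted p = 0.00887) for the 14 plus-strand genes. Without KO library 1 the minus-strand tRNA sum gave -0.98 (adjusted p = 0.0609). Minus-strand genes held 38.1% and 33.0% of tRNA counts in KO and 32.1% and 31.6% in WT, and the exact permutation test again gave p = 0.333. The difference between the strands was not itself tested, and the plus-strand sum is nearly all mRNA and rRNA.

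Nuclear genes that act on mitochondrial RNA were examined as 7 lists of transcription, genome copying, RNA cleavage, tailing and decay, base modification, translation and biogenesis regulators. Of 80 tested genes 2 were higher and 4 lower in KO (background 12.4% of all genes in either direction), and the median log2 fold change was -0.13. Those lower by the test were Nsun2, a tRNA cytosine methyltransferase (-1.07, SE 0.14, adjusted p = 0.00202), Fastkd1, a mitochondrial FAST kinase domain protein (-1.36, SE 0.25, adjusted p = 0.00957), Ssbp1, the mitochondrial single-stranded DNA-binding protein (-0.86, SE 0.22, adjusted p = 0.0345), and Trmt10c, a subunit of mitochondrial RNase P, which cuts the leading end of tRNAs (-0.93, SE 0.25, adjusted p = 0.0419).

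Tefm, the mitochondrial transcription elongation factor, stood at 41.0 and 29.7 CPM in KO and at 11.6 and 14.1 in WT, and rose by 1.46 (SE 0.25, adjusted p = 0.00668). Angel2, an RNA phosphatase, rose by 1.00 (SE 0.19, adjusted p = 0.0109). Trmt10c stood at 24.7 and 31.7 CPM in KO and at 65.6 and 41.5 in WT, so WT library 1, which also had the most rRNA, was highest. Without that library Trmt10c gave -0.56 (adjusted p = 0.106) and Ssbp1 -0.55 (adjusted p = 0.0772), and both also lost their calls without KO library 1 or KO library 2. Fastkd1 (-1.21, adjusted p = 0.0534) and Angel2 (0.93, adjusted p = 0.0558) lost theirs without KO library 2. With 1 library left out the number of genes lower in the lists was 1 to 10 and the number higher 1 to 3, the 10 without WT library 2.

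By list, 1 of 10 transcription genes was higher and 0 lower, 1 of 12 genome copying genes was lower, 2 of 11 RNA cleavage genes were lower, 1 of 11 tailing and decay genes was higher, and 1 of 16 modification genes was lower. None of 12 translation factors and none of 8 biogenesis regulators passed in edgeR's test. The core transcription genes Polrmt (-0.06, SE 0.21) and Tfam (-0.18, SE 0.17) did not pass, nor did Lrpprc, which stabilises mitochondrial mRNA (-0.36, SE 0.21), or the poly(A) polymerase gene Mtpap (-0.12, SE 0.20). The transcription factor gene Myc stood at 10.4 and 16.9 CPM in KO and at 43.7 and 15.2 in WT, and gave -1.12 (SE 0.44, adjusted p = 0.13). Its groups overlapped, and WT library 1 alone was high.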

How the data were processed

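The authors deposited a single matrix of raw whole-number counts for 4 libraries, keyed by Ensembl gene, from poly(A) RNA and a 3' tag kit per the labels' protocols. The submitters' processing notes name Trim Galore and GRCm38. No source used here gives the aligner, the counter, its strand setting or its treatment of reads with several places.

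Groups came from the sample titles. GENCODE vM21 named 55240 identifiers, and the other 181 held 0.0025% of counts. The test was edgeR 4.0.16 in R 4.3.3 (two-sided quasi-likelihood F test, TMM, filterByExpr, Benjamini-Hochberg adjustment over 14427 genes), checked on simulated counts. There it recovered 7.46% of 1.5-fold, 17.9% of 2-fold and 100% of 4-fold changes, and called 0.00706% of unchanged genes. Many changes of 2-fold or less can therefore be missed. The SE is the absolute log2 fold change over the root of F. Sums by kind or strand replaced the member genes in the fit. Nuclear copies were found with BLAST 2.17.0. The members and lists were chosen with earlier results of these data known. All members with counts could be named, with up to 4 genes of smallest p per nuclear list and copies with at least 10 counts. Polrmt, Tfam, Lrpprc, Mtpap, the copy Gm10222 and the mt-Cytb to mt-Nd2 ratio were chosen after their values were seen. In the cleavage list the names Prorp and Fastkd4 were not matched, but Fastkd4 is another name of Tbrg4, which was listed and tested. Alternatives were DESeq2 1.42.0 (size factors, test), TMM without mitochondrial genes, library totals, other filters, the replicate block and each library left out. The split by kind and strand together was added after seeing the data.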

Additional observations from a re-analysis of the deposited data

How the results depend on the processing

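With a low-count filter and all 4 libraries, the signs of all 23 members held under DESeq2 size factors, TMM without mitochondrial genes, library totals and the DESeq2 test. The count of members lower (12) was 11 to 14 under these. Without a filter 3 of 10 mRNAs, 2 of 2 rRNAs and 12 of 16 tRNAs were lower, mt-Nd1 among them. The count was then 17 of 28 tested members. It was 7 with the replicate block and 6 to 14 with 1 library left out; mRNAs (2) gave 1 to 2, rRNAs (2) 1 to 2 and tRNAs (8) 3 to 11. With the block the rRNA count was 0, the tRNA count 5 and the rRNA sum -0.77 (adjusted p = 0.0766). With a mean CPM of at least 10, 1 rRNA and 5 of 5 tested tRNAs were lower. With 1 library left out the rRNA sum was -1.07 to -0.46, the tRNA sum -1.70 to -1.04 and the minus-strand sum -1.57 to -1.13. With 1 library left out mt-Nd3 (-0.04) was -0.24 to 0.14, reversed without KO library 2 (0.14) and WT library 1 (0.11), and Fastkd3 (-0.33) was -0.62 to 0.043, reversed without WT library 1. The cause was not tested. The difference in mitochondrial share, -0.79 percentage points (-1.01 to -0.58 with 1 library left out), was -0.40 as mRNA over protein coding counts and -0.35 as mRNA over counts without rRNA and tRNA, which leave out the mitochondrial rRNA. In the nuclear lists 4 were lower and 2 higher; with the block 2 were lower, and with 1 library left out 1 to 10 were lower and 1 to 3 higher. Over all genes 715 were lower and 1071 higher: 1193 lower without a filter, 391 and 636 at a mean CPM of at least 10, 369 and 636 with the block, and 285 to 1011 and 556 to 1477 with 1 library left out, where the lone library is assumed to vary like the other group. The labels do not say whether the numbers 1 and 2 mark paired libraries. Across all tested genes the deviations of KO library 1 and WT library 1 from their group means correlated at -0.07. For the members the picture was mixed. With the block the SE went from 0.23 to 0.15 for the tRNA sum and from 0.11 to 0.06 for the mRNA sum. For the rRNA sum it went from 0.20 to 0.21. Pairing is therefore not settled for these genes. The 9 members at 0 counts, and 5 more below the filter, were not tested; the cause of the zeros was not tested.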
